A study of Mus musculus with 18 samples.

Results

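The miR-200 family was followed through 3 cell fractions of the mouse brain. Its 5 mature members, mmu-miR-200b-3p, mmu-miR-200a-3p, mmu-miR-429-3p, mmu-miR-200c-3p and mmu-miR-141-3p, were found by name among the 1978 mature miRNAs of a table of 203513 small RNA features. The family was chosen by its KIN and WT counts, because miR-200a, miR-200b and miR-429 were lower in mutant (KIN) than in control (WT) libraries of both glial fractions. The KIN and WT values of astrocytes and microglia are therefore a description of what chose the family, and no test is read from them.

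The study compared wild-type (WT) mice with homozygous Atxn2-CAG100-knockin (KIN) littermates, which carry an expanded CAG repeat in Atxn2 (encoding ataxin-2, an RNA-binding protein) and model spinocerebellar ataxia type 2. All mice were on a C57BL/6 background, untreated and 10 months old. Per the study's methods, magnetic beads removed microglia from a dissociated brain by CD11b and then astrocytes by ACSA-2, while neurons were collected as the unbound remainder. The 18 small RNA libraries formed 6 groups of 3, namely astrocytes, microglia and neurons from WT and from KIN brains. The labels call the replicates biological, but do not say which libraries came from the same brain.

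miRNAs are short RNAs that guide Argonaute proteins to messenger RNAs, mostly through bases 2 to 8 of the miRNA, the seed. The miR-200 family is best known from epithelial cells, where it represses the transcription factors Zeb1 and Zeb2 and thereby maintains E-cadherin (encoded by Cdh1) and the epithelial state. Zeb1 and Zeb2 in turn repress the genes of the family. In the brain, its members are abundant in olfactory neuroepithelium and other epithelial tissues, while most neurons and glia hold little of them.

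The sequences are shown because they define which members share targets and which could be confused in counting. They are from RefSeq (all 5 members matched, with the same letters as in the deposited table) and are written from 5′ to 3′ with the seed in capitals.
mmu-miR-200b-3p: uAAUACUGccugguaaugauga
mmu-miR-429-3p: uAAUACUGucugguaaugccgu
mmu-miR-200c-3p: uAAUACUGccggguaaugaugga
mmu-miR-200a-3p: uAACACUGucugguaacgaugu
mmu-miR-141-3p: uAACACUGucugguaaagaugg
The members fall into a group with the seed AAUACUG (miR-200b, miR-429 and miR-200c) and a group with the seed AACACUG (miR-200a and miR-141). Counted from 1 at the 5′ end, the seeds of miR-200b and miR-200a differ by U4C alone. The closest relatives lie in different genomic clusters. miR-200b and miR-200c differ at 2 of 22 compared bases, U11G and A22G, and miR-200a and miR-141 differ at C17A and U22G. Short or imperfect reads could be split between such near-identical members.

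The genes form 2 clusters, both on the minus strand of GRCm39. On chromosome 4, the Mir200b hairpin lies at chr4:156140138-156140207, Mir200a at chr4:156139353-156139442 and Mir429 at chr4:156138362-156138444, with 695 and 908 bases between neighbours. All 3 lie within introns of Ttll10 (encoding a tubulin tyrosine ligase-like protein) and overlap the lncRNA gene Gm13648, in an exon of it for Mir429. Mir200a also overlaps an exon of the lncRNA gene Gm69145 on the opposite strand. On chromosome 6, Mir200c at chr6:124695285-124695353 and Mir141 at chr6:124694877-124694948 are 336 bases apart. They lie between Phb2 and Ptpn6 and overlap the lncRNA genes Gm15884 and, on the opposite strand, Gm66652.

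Library totals ran from 1211118 to 4316748 counts, so 3 counts, the smallest number taken as more than a count of 0 allows, stood for 0.695 to 2.48 counts per 1000000 (CPM, per 1000000 counts of all features in the library). Mature miRNAs took 5.05% to 8.30% of counts in WT astrocytes and 8.43% to 10.3% in KIN astrocytes. They took 5.09% to 5.99% in WT and 5.86% to 8.45% in KIN microglia, but only 0.964% to 1.93% in WT and 1.33% to 2.13% in KIN neurons. The miRNAs listed for astrocytes, miR-9-5p and miR-9-3p, summed to 5835 to 9496 CPM in WT astrocytes. They also summed to 964 to 2265 CPM in WT neurons and 2253 to 4079 CPM in KIN neurons, so they did not mark the astroglial fraction alone. The myeloid list (miR-142a-3p, miR-142a-5p and miR-223-3p) summed to 2835 to 3389 CPM in WT microglia. The neuronal list (miR-124-3p, miR-128-3p and miR-138-5p) did not mark the neuronal fraction, with 48.7 to 228 CPM there against 1354 to 3150 CPM in WT astrocytes. Xist fragments, a female marker, numbered 4 or 5 in each KIN library with replicate number 1, against 44 to 88 in the other KIN libraries and 12 to 102 in WT. The study's methods give KIN and WT pairs of the same sex, with pairs of both sexes, which these counts do not show. In such mixed fractions, fewer cells of a type and less RNA per cell cannot be told apart.

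In the astroglial fraction, the whole family was present in WT and nearly absent in KIN. miR-200a-3p, the most abundant member there, had 106, 62 and 137 counts in WT replicates 1 to 3 and 0, 2 and 0 in KIN. miR-200b-3p had 109, 40 and 116 counts in WT against 2, 5 and 0 in KIN. miR-429-3p had 50, 21 and 61 against 1, 3 and 1. In each case all WT libraries lay above all KIN libraries, and WT replicate 2 was the lowest of the WT libraries.

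The members of the chromosome 6 cluster followed the same order in astrocytes. miR-200c-3p had 45, 12 and 32 counts in WT and 0, 0 and 1 in KIN. miR-141-3p, the scarcest member, had 2, 2 and 8 counts in WT and 1, 0 and 0 in KIN. Its WT libraries lay above the KIN libraries, although all but 1 library of the 6 were within 3 counts.

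As mean levels in astrocytes, miR-200a-3p stood at 30.3 ± 13.3 CPM in WT and 0.186 ± 0.322 CPM in KIN (SD, n = 3 each), and miR-200b-3p at 26.6 ± 14.4 and 0.658 ± 0.700 CPM. miR-200a-3p ranked 125 among the 747 mature miRNAs with a count in WT astrocytes and 575 of 803 in KIN astrocytes. With the counts of all libraries of a group pooled, the 5 members summed to 803 in WT and 16 in KIN, so that KIN held 1.93% of the WT level, 51.8-fold less (exact 95% interval 31.7 to 91.0, which covers counting error only). KIN replicate 2 held 10 of the 16 counts, and without it KIN was 92.0-fold below WT. By cluster, 14 against 702 counts were left for miR-200b, miR-200a and miR-429, and 2 against 101 counts for miR-200c and miR-141. The latter ratio has an interval of 0.00229 to 0.0712, too wide to compare the clusters in this fraction.

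**Figure D1:**
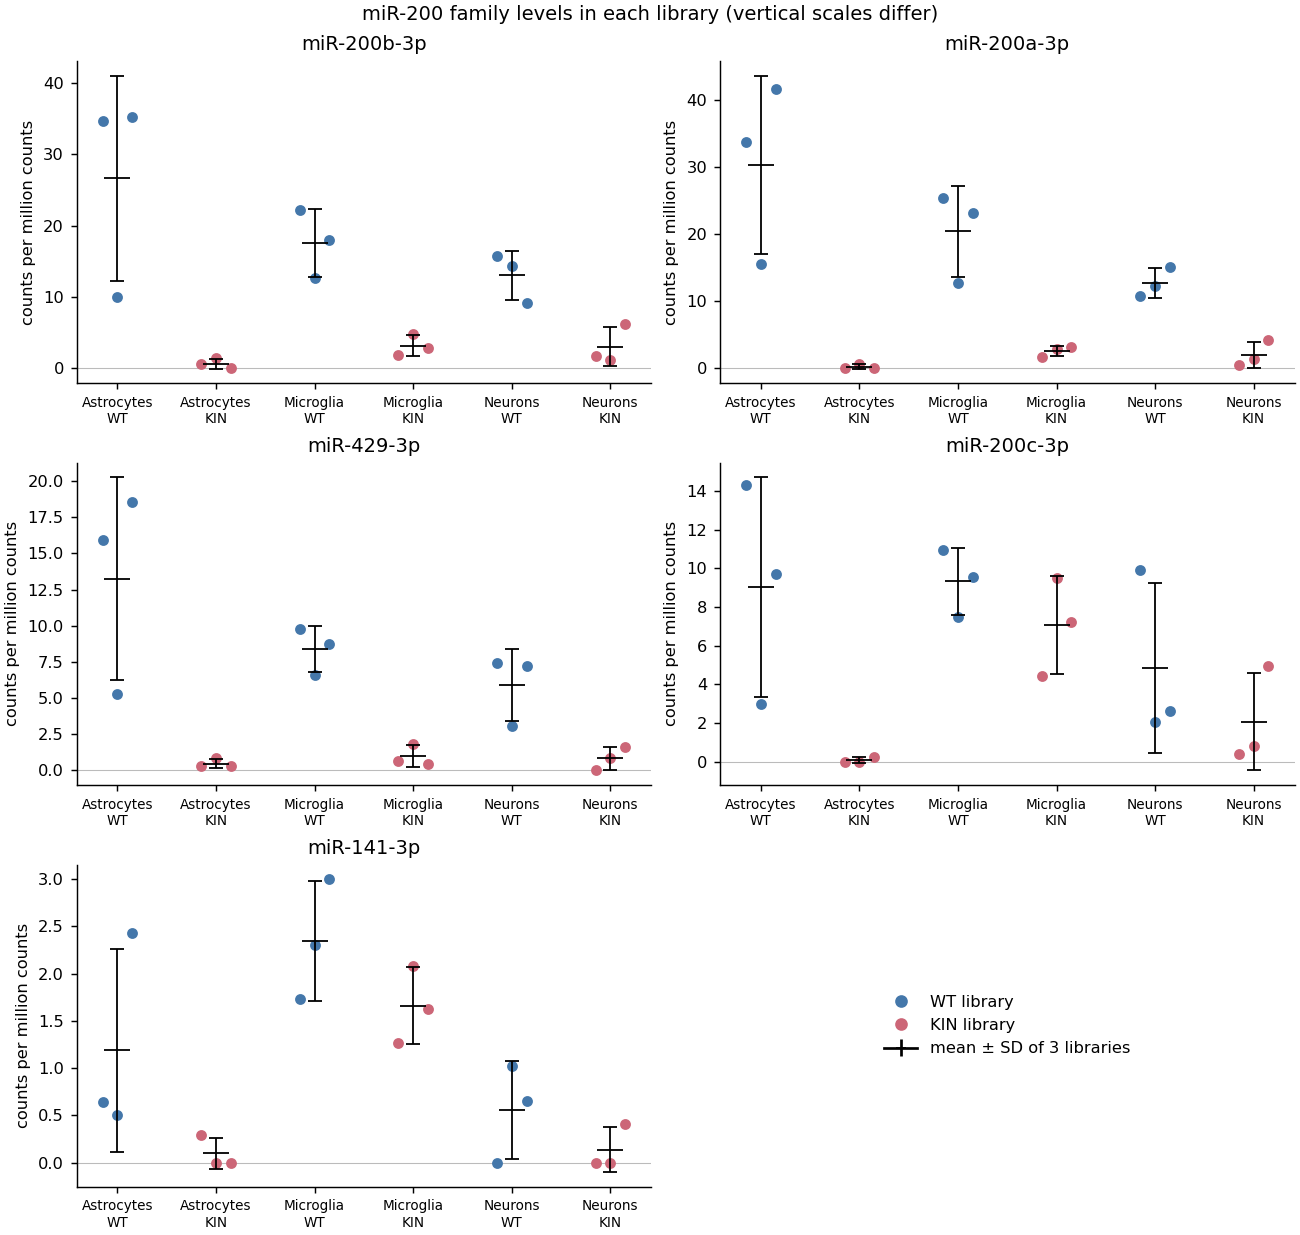
Level of each member in every library, in counts per 1000000 counts of the library (vertical axis, own scale per panel), for the 6 groups (horizontal axis). Points are libraries, and bars give the mean ± SD of 3 libraries. KIN astrocytes lie near 0 in all panels, while miR-200c-3p and miR-141-3p in KIN microglia overlap their WT libraries.

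The edgeR fit of astrocytes is given as a description, since these counts chose the family. A feature was fitted with at least 5 counts in at least 2 libraries. A call needed an adjusted p no higher than 0.05 and a log2 fold change (log2FC) no smaller than 1 in size. The log2FC was −6.96 ± 0.72 (SE) for miR-200a-3p, −5.12 ± 0.73 for miR-200b-3p, −4.57 ± 0.64 for miR-429-3p and −5.99 ± 0.92 for miR-200c-3p, against a median of −0.19 over all features fitted and 0.58 over mature miRNAs. These members passed the filter through WT libraries, miR-141-3p did not pass it, and the choice fixed that they were called lower. In the same fit 6.39% of all features and 2.15% of the mature miRNAs (9 of 418) were called lower, and all KIN libraries lay below all WT libraries for 21.5% of features and 3.35% of mature miRNAs. Nothing is read from the members' calls against these shares.

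In the microglial fraction, the clusters differed. The chromosome 4 members were lower in KIN, while the KIN and WT libraries of miR-200c and miR-141 overlapped relative to all counts of a library, but not relative to mature miRNA counts. miR-200b-3p had 77, 44 and 66 counts in WT replicates 1 to 3 and 6, 21 and 12 in KIN. miR-200a-3p had 88, 44 and 85 against 5, 12 and 13. miR-429-3p had 34, 23 and 32 against 2, 8 and 2. No KIN library of these members reached the lowest WT library.

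By contrast, miR-200c-3p had 38, 26 and 35 counts in WT microglia and 14, 41 and 31 in KIN, and the highest of the 6 counts was in a KIN library. miR-141-3p had 6, 8 and 11 counts in WT and 4, 9 and 7 in KIN. Scaled to library totals, the groups overlapped for both members.

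Pooled over libraries, KIN microglia held 14.8% of the WT level of the chromosome 4 members (81 against 493 counts, 6.74-fold less, 95% interval 5.32 to 8.64). For miR-200c-3p the ratio of KIN over WT was 0.784 (0.580 to 1.06) per 1000000 counts of all features, whereas per 1000000 mature miRNA counts it was 0.551 (0.408 to 0.743) with no overlap between the groups. For miR-141-3p it was 0.722 (0.380 to 1.35) on the first scale and 0.507 (0.267 to 0.951), again with no overlap, on the second. The chromosome 4 members were at 10.4% of WT on the second scale, so on both scales they lay below the chromosome 6 members.

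In the edgeR fit of microglia, again a description, the log2FC was −2.21 ± 0.36 (SE) for miR-200b-3p, −2.77 ± 0.36 for miR-200a-3p and −2.81 ± 0.50 for miR-429-3p, but −0.18 ± 0.32 for miR-200c-3p and −0.27 ± 0.46 for miR-141-3p, against a median of −0.11 over all features. The first 3 are the members whose counts chose the family, so that their calls as lower restate the choice. Among all features fitted 2.94% were called lower, and 2.09% of the mature miRNAs (8 of 382). The groups were apart, with KIN lower, for 13.8% of features and 9.42% of mature miRNAs.

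**Figure D2:**
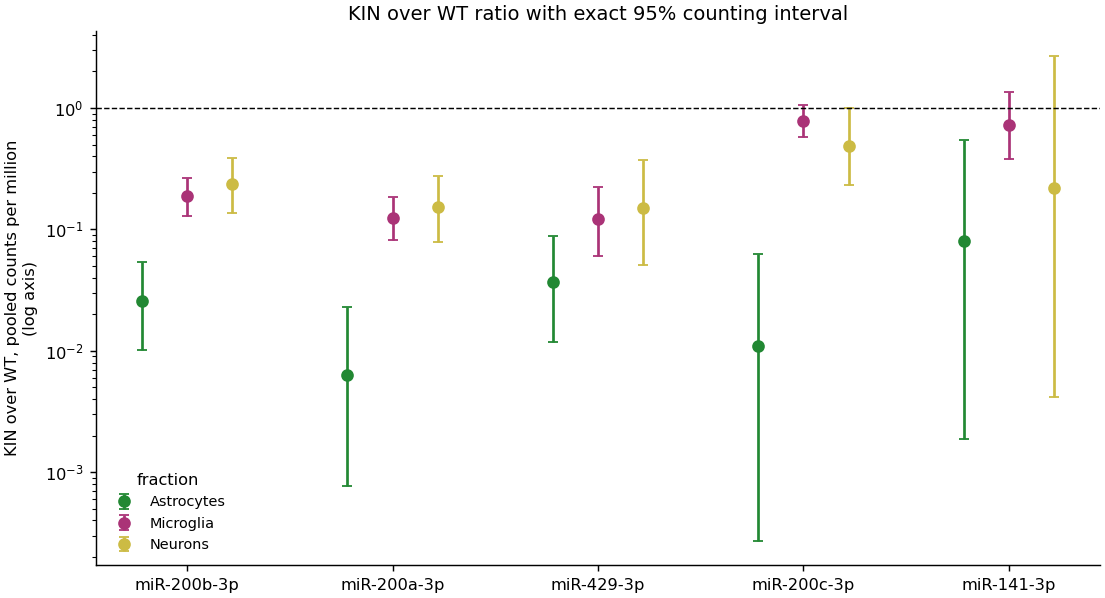
Ratio of KIN over WT (vertical axis, log scale) of pooled counts per 1000000 for each member (horizontal axis) in astrocytes, microglia and neurons. Bars are exact 95% intervals for counting error, and the dashed line marks equal levels. In microglia, the chromosome 4 members lie between 0.122 and 0.188, whereas miR-200c-3p is at 0.784 and miR-141-3p at 0.722.

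The family therefore had another makeup in KIN microglia, a description that partly restates the choice by miR-200b, miR-200a and miR-429. The chromosome 4 cluster gave 81.9%, 76.6% and 79.9% of family counts in WT microglia replicates 1 to 3 and 41.9%, 45.1% and 41.5% in KIN. Pooled, the share was 79.9% in WT (Clopper-Pearson 95% interval 76.5 to 83.0, 617 counts) and 43.3% in KIN (36.1 to 50.7, 187 counts). The seed AAUACUG was carried by 58.1% to 64.1% of family counts in the WT libraries and by 69.2% to 76.9% in the KIN libraries, since miR-200c-3p bears it. In KIN astrocytes the share of the chromosome 4 cluster rested on 16 counts (87.5%, 61.7 to 98.4), and in WT astrocytes it was 84.9% to 89.8%.

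**Figure D3:**
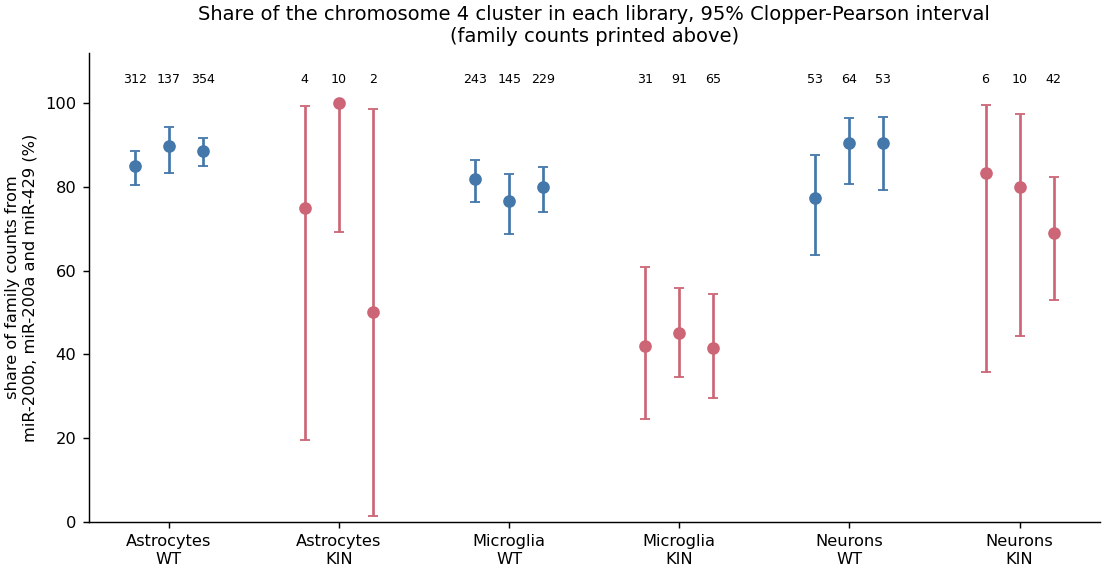
Share of family counts that came from miR-200b-3p, miR-200a-3p and miR-429-3p (vertical axis, percent) in each library of the 6 groups (horizontal axis), with the number of family counts above each library. Bars are Clopper-Pearson 95% intervals. KIN microglia lie between 41.5% and 45.1%, below all WT microglia, and the intervals of KIN astrocytes are wide because the libraries hold 2 to 10 family counts.

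The stated reason for choosing the family named glial libraries only. Earlier results of these data were known at the choice, and all fractions come from the same set of brains. The neuronal libraries are therefore not a separate check. The chromosome 4 members were lower in each KIN library than in each WT library there too, but the difference did not pass the test. miR-200b-3p had 19, 28 and 14 counts in WT and 4, 3 and 15 in KIN. miR-200a-3p had 13, 24 and 23 against 1, 3 and 10. miR-429-3p had 9, 6 and 11 against 0, 2 and 4. KIN replicate 3 was the highest KIN library for each of them, and for miR-200b-3p its 15 counts exceeded the 14 of a WT library, yet the order held after scaling to library totals.

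miR-200c-3p had 12, 4 and 4 counts in WT neurons and 1, 2 and 12 in KIN, so the groups overlapped. miR-141-3p had 0, 2 and 1 against 0, 0 and 1, too few to compare. The family sum was 170 in WT and 58 in KIN, and KIN held 22.3% of the WT level (4.49-fold less, 95% interval 3.32 to 6.16 for counting error). KIN replicate 3 held 42 of the 58 counts, and without it KIN was at 9.26% of WT, 10.8-fold less.

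In the edgeR fit of neurons, 0 of 4 members tested and 0 of 4535 features (0%) were called, while 3 members and 197 features had an unadjusted p no higher than 0.05. The log2FC was −2.68 ± 0.62 (SE) for miR-200a-3p, −2.09 ± 0.59 for miR-200b-3p and −2.70 ± 0.79 for miR-429-3p, each with an edgeR adjusted p of 0.917. It was −1.14 ± 0.90 for miR-200c-3p. miR-200a-3p, miR-200b-3p and miR-429-3p passed the filter through WT libraries, which favoured a lower value in KIN in advance. All KIN libraries lay below all WT libraries for 5.89% of features and 4.61% of mature miRNAs tested in neurons, these 3 members among them. The call on miR-200a-3p depended on the fit. DESeq2 with a local dispersion trend called it (adjusted p 0.0359), and DESeq2 with its default trend, added after the data were seen, did not (adjusted p 0.157). Over all alternatives its adjusted p ran from 0.0189, without WT replicate 1, to 0.999. Whether the KIN difference was unequal between fractions was not tested.

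Fractions were next compared within a genotype. The WT contrasts set fractions of 1 genotype side by side, although the WT glial libraries also entered the choice. In WT, levels in astrocytes and microglia could not be told apart, and those in neurons depended on the scale. The family sum was 80.4 ± 40.0 CPM in WT astrocytes, 58.1 ± 14.6 in WT microglia and 37.1 ± 5.89 in WT neurons (SD, n = 3 each). Single libraries overlapped between neighbours in this order, with 34.4 to 107 CPM in astrocytes, 41.7 to 70.0 in microglia and 32.7 to 43.8 in neurons. The order was turned per 1000000 mature miRNA counts, with 3147 ± 1424 in neurons, 1382 ± 843 in astrocytes and 1072 ± 267 in microglia.

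Between WT microglia and WT astrocytes 0 of 5 members were called by edgeR, and 0 had an unadjusted p no higher than 0.05, in a comparison where 31.5% of features and 57.9% of mature miRNAs were called. The log2FC of microglia over astrocytes ran from −0.53 ± 0.44 (SE) for miR-429-3p to 1.10 ± 0.64 for miR-141-3p. The share of the chromosome 4 cluster was 79.5% ± 2.70 in WT microglia and 87.8% ± 2.54 in WT astrocytes (SD, n = 3 each). The libraries did not overlap, and the exact 2-sided permutation test gave p = 0.1 (adjusted over 2 comparisons 0.1). That is the smallest that 3 against 3 libraries allow, so this design cannot reach 0.05. The other comparison was that of KIN microglia with KIN neurons.

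With TMM factors over all features, miR-200a-3p was called lower in WT neurons than in WT astrocytes (log2FC −1.44 ± 0.45 SE, edgeR adjusted p 0.0417). It was 1 of 4 members tested, where 18.5% of features and 58.6% of mature miRNAs were called lower. The WT astrocyte counts entered the choice of the family, which favoured a higher level there, so the call is a description. Of 13 alternative fits, 5 kept this call, 7 lost it and 1 reversed the direction, with adjusted p-values up to 0.221. The call was lost with library totals, in the fit of all 18 libraries and without WT astrocyte replicate 1 or 3 or any WT neuron library. With the replicate number as a block, miR-429-3p was called as well (log2FC −1.31, edgeR adjusted p 0.0466). With TMM factors taken from mature miRNAs alone the log2FC of miR-200a-3p was 0.87, so its direction rests on the scaling. Between WT neurons and WT microglia 0 of 5 members were called by edgeR, where 28% of features and 63.6% of mature miRNAs were called. Only miR-141-3p had an unadjusted p no higher than 0.05. It passed the filter through microglia alone, so the filter fixed its direction.

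**Figure D4:**
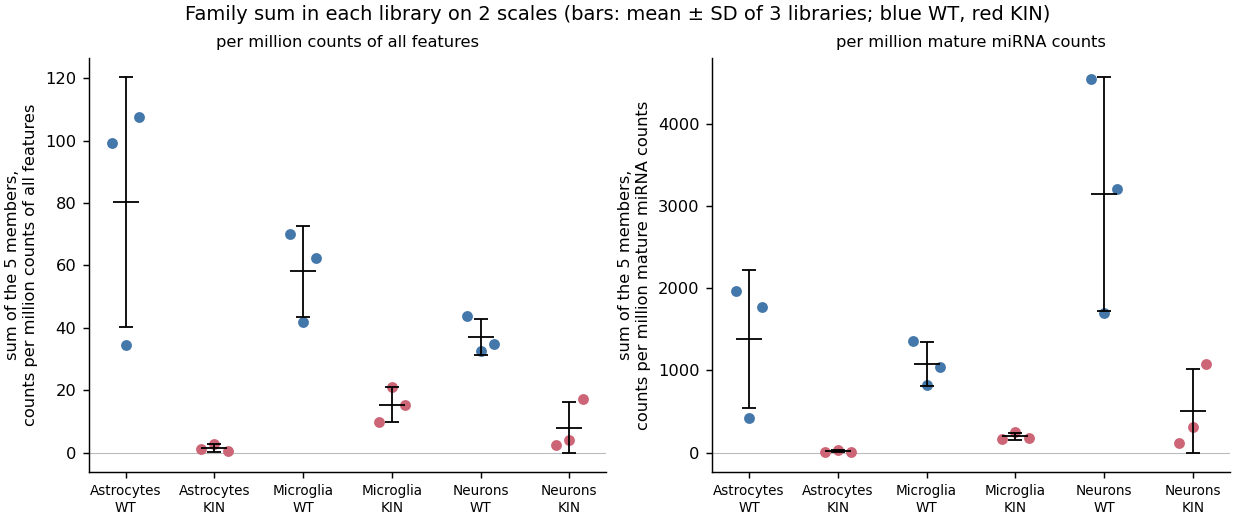
Sum of the 5 members in each library of the 6 groups (horizontal axis), as counts per 1000000 counts of all features (left) and per 1000000 mature miRNA counts (right). Points are libraries, and bars give the mean ± SD of 3 libraries. KIN lies below WT in each fraction on both scales, while WT neurons are lowest of the WT groups by mean on the left and highest on the right.

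The KIN contrasts reuse the low KIN counts that chose the family, and their fold changes are given without a test. In KIN microglia over KIN astrocytes, the log2FC was 5.93 ± 0.72 (SE) for miR-200c-3p, 3.65 ± 0.79 for miR-200a-3p, 3.88 ± 0.87 for miR-141-3p and 2.38 ± 0.69 for miR-200b-3p. These members passed the filter through the microglial libraries alone, and miR-429-3p did not pass it, so their direction was fixed by the filter. In this contrast 14% of features and 22.1% of mature miRNAs were called higher.

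In KIN neurons over KIN microglia, the log2FC was −2.23 ± 0.54 (SE) for miR-200c-3p, −3.68 ± 0.98 for miR-141-3p, −0.83 ± 0.59 for miR-200a-3p and −0.56 ± 0.54 for miR-200b-3p. With TMM factors from mature miRNAs alone these values became 0.26, −1.48, 1.65 and 1.93 in the same order, so that only miR-141-3p kept its sign. All 4 members tested passed the filter through the microglial libraries, which favoured a lower value in neurons. In this contrast 26.2% of features and 76.1% of mature miRNAs were called lower. The chromosome 4 share, which does not depend on the scaling, was 42.8% ± 1.93 in KIN microglia and 77.5% ± 7.47 in KIN neurons (SD, n = 3 each), without overlap. Its low value in KIN microglia partly follows from the choice of miR-200b, miR-200a and miR-429. The permutation test of this share, the other of the 2 comparisons, also gave p = 0.1, the smallest possible, and nothing is read from it. In KIN neurons over KIN astrocytes, miR-200b-3p had a log2FC of 1.90 ± 0.72, where 22.2% of features and 3.78% of mature miRNAs were called higher.

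The other arms of the hairpins were nearly absent. miR-200b-5p had 10 counts in 5 of 18 libraries, of which 7 were in WT astrocytes, and the other 4 arms had 0 counts in all libraries. The hairpin genes had 351 counts for Mir200b, 554 for Mir200a, 93 for Mir429, 232 for Mir200c and 23 for Mir141. Their values followed those of the mature members across the 18 libraries (Pearson r 0.915 to 0.999), and the hairpin and mature features share sequence, so they are not separate observations.

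The members moved together across libraries to unequal degrees. Over the 18 libraries, on the log2(CPM + 1) scale, Pearson r was 0.975 between miR-200b-3p and miR-200a-3p and 0.958 between miR-200a-3p and miR-429-3p, but 0.802 between miR-200b-3p and miR-200c-3p and 0.697 between miR-200c-3p and miR-141-3p. These correlations describe libraries of 6 groups that share brains and differ in depth. Among 452 other mature miRNAs, the pattern of the family sum was most like that of miR-183-5p (r 0.735), miR-182-5p (0.703) and miR-96-5p (0.677), followed by miR-3535 (0.577), miR-133a-3p (0.508), miR-935 (0.453), miR-8114 (0.440), miR-212-3p (0.414), miR-1a-3p (0.386) and miR-8112 (0.382).

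The miRNAs miR-183, miR-96 and miR-182 come from a single cluster known from sensory and pineal cells. They summed to 19.3 to 32.8 CPM in WT astrocytes and 1.95 to 2.96 CPM in KIN astrocytes. In microglia they summed to 10.7 to 22.2 CPM in WT and 0 to 1.16 CPM in KIN, and in neurons to 10.5 to 33.2 and 2.13 to 4.12 CPM. All 3 were called lower in KIN in astrocytes, as were 6.39% of all features, and in microglia, as were 2.94%. Of the 2 tested in neurons none was called. Except miR-182-5p in astrocytes, they passed the filter in glia through WT libraries alone, which fixed the direction. Likeness to a family chosen for low KIN counts also favoured this direction. Unlike miR-200c-3p, these 3 miRNAs had only 0 to 4 counts each in KIN microglia. Their part in the family's difference was not tested.

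Marker lists of other cell types also differed between genotypes in CPM of all features. Mature miRNAs as a whole were higher in KIN on this scale. Their median log2FC with library totals was 0.459 in astrocytes and 0.254 in microglia, against 0.58 and 0.46 with TMM factors. The lists were not scaled to mature miRNA counts, so a higher sum need not be higher relative to other miRNAs. In astrocytes, all KIN libraries lay below all WT libraries for 21.5% of features and 3.35% of mature miRNAs. The share with KIN wholly above WT was not counted in any fraction. Of 12 marker lists, 5 had summed levels without overlap between KIN and WT astrocytes. Beside the sensory and pineal list, these were the myeloid list (10.2 to 12.6 CPM in WT, 25.0 to 48.5 in KIN), the oligodendrocyte list of miR-219a-2-3p and miR-338-3p (830 to 1496 in WT, 1510 to 2148 in KIN), the multiciliated list (900 to 1501 in WT, 2156 to 2274 in KIN) and the endocrine list of miR-7a-5p, miR-7b-5p and miR-375-3p (149 to 163 in WT, 179 to 190 in KIN), all higher in KIN as sums. In the endocrine list the sum followed miR-375-3p (log2FC 0.72 ± 0.17), while miR-7a-5p was at −0.25 ± 0.22 and miR-7b-5p at −0.67 ± 0.34, and none of the 3 was called. Of single markers among these, miR-142a-3p (log2FC 1.96 ± 0.33) and miR-34b-5p (1.05 ± 0.22) were called higher, as were 11.2% of mature miRNAs tested there. In the multiciliated list (miR-449a-5p, miR-449c-5p, miR-34b-5p and miR-34c-5p), miR-449c-5p had 0 counts in KIN astrocytes and miR-449a-5p at most 6 in a library.

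In microglia, 6 lists were without overlap, where 13.8% of single features and 9.42% of mature miRNAs lay wholly lower in KIN. Lower in KIN were the sensory and pineal list and the miR-9 list named for astrocytes (82.3 to 245 CPM in WT, 59.1 to 68.6 in KIN). So were the neuronal list (60.7 to 159 in WT, 47.0 to 55.1 in KIN) and the mural list of miR-143-3p and miR-145a-5p (145 to 202 in WT, 59.4 to 136 in KIN). Higher in KIN were the oligodendrocyte list (19.3 to 21.5 in WT, 22.6 to 32.7 in KIN) and the erythrocyte list of miR-451a, miR-144-3p and miR-486a-5p (17.3 to 22.2 in WT, 28.6 to 131 in KIN). The choroid plexus list (miR-204-5p and miR-211-5p) overlapped (133 to 190 in WT, 177 to 297 in KIN), although miR-211-5p was called higher (log2FC 3.03 ± 0.35), as were 8.38% of mature miRNAs. In the neuronal list, miR-124-3p was called lower (log2FC −1.28 ± 0.31). The endothelial list (miR-126a-3p and miR-126a-5p) overlapped in all 3 fractions, as did the list of stratified epithelium (miR-203-3p and miR-205-5p), at 55.3 to 62.2 CPM in WT and 53.4 to 88.0 CPM in KIN microglia. In neurons, the sensory and pineal list was without overlap and the other 11 lists overlapped. There 5.89% of single features and 4.61% of mature miRNAs lay wholly lower in KIN. The part of these cell types in the family's difference was not tested.

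The messenger RNAs of known targets, regulators and processing factors were sampled only as short fragments. Of the 38 genes in the list, 16 passed the filter in astrocytes, 12 in microglia and 16 in neurons. In astrocytes 1 gene was called, against 8.57% of all gene-level features, in microglia 0 (4.69%) and in neurons 0 (0%), while 5, 0 and 2 genes had an unadjusted p no higher than 0.05. The median log2FC of those tested was −0.69 in astrocytes, −0.11 in microglia and 0.04 in neurons, beside −0.27, −0.18 and −0.11 over all gene-level features.

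The gene called was Zeb1 (encoding a repressor of E-cadherin), with 34 counts in WT and 8 in KIN astrocytes (log2FC −1.88 ± 0.51 SE, edgeR adjusted p 0.0366). WT libraries had 9 to 16 counts and KIN libraries 2 or 3, so Zeb1 passed the filter through WT alone and its direction was fixed by the filter. The call was lost with DESeq2, without the filter, in the fit of all 18 libraries and when any library other than WT replicate 2 was left out. Zeb2, its paralog, had 46 counts in WT and 23 in KIN astrocytes, 72 and 50 in microglia and 29 and 62 in neurons, and did not pass the test. Dicer1 (encoding the enzyme that cuts miRNA hairpins) had 32 and 9 counts in astrocytes (log2FC −1.63 ± 0.51, edgeR adjusted p 0.0554) but 12 and 12 in microglia. In astrocytes Dicer1 too passed the filter through WT libraries alone. Dgcr8 (encoding the partner of Drosha in the nucleus) had 92 and 72 counts in astrocytes and 65 and 72 in microglia. Cdh1, Esrp1, Esrp2 and Epcam, genes of the epithelial state, did not pass the filter in any fraction.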

How the data were processed

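Small RNA was sequenced from 18 libraries. The authors used Cutadapt 4.6 for trimming and Bowtie2 2.4.4 for alignment, first to mature miRNAs, then to tRNAs, piRNAs and Ensembl transcripts of mm39, and counted with HTSeq 2.0.2 without strand. The deposited counts are whole numbers per feature, not normalized. Whether molecular identifiers were collapsed is not given in the sources used here, so intervals cover counting error only. A further 36 per-library columns, and the authors' fold changes and p-values of KIN against WT, were not used.

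Groups came from sample titles. Counts were tested with edgeR 4.0.16 (R 4.3.3, limma 3.58.1, quasi-likelihood, TMM factors, Benjamini-Hochberg adjustment over all features) in a fit per comparison, and with DESeq2 1.42.0 as an alternative. Features needed at least 5 counts in at least 2 libraries. For the target list, transcripts of a gene were summed. p-values measure the spread between these libraries. The script was tested on simulated data. Deviations of same-numbered libraries correlated at 0.134, 0.301 and 0.103 between WT neurons and WT astrocytes. The values were 0.272, 0.318 and 0.021 between WT microglia and WT astrocytes, and 0.112, 0.237 and 0.014 between WT neurons and WT microglia. In each other comparison not all were positive. The main fits used no pairing.

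Members and lists were chosen with earlier results of these data known. Named were the members, their arms and hairpins, the marker miRNAs, tested target genes and the 10 miRNAs most like the family sum (log2(CPM + 1), at least 5 counts in at least 3 libraries).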

Additional observations from a re-analysis of the deposited data

How the results depend on the processing

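No member changed sign between KIN and WT in 167 alternative values, each for a member under a setting in a fraction. Members of a fit share its libraries, so these are not separate checks. For the 7 values called in glia, which the choice of the family had fixed, 76 of 91 alternatives kept the call and 15 lost it. For the 6 values not called, 72 of 76 stayed so and 4 gained a call, all for miR-200a-3p in neurons. Leaving out 1 library gave 2 to 4 members called lower in KIN astrocytes, 0 to 3 in microglia and 0 to 1 in neurons. The 2 came without KIN astrocyte replicate 3, and the 0 in microglia without WT replicate 1 or either of KIN replicates 2 and 3. The pooled family level in KIN ran from 1.09% to 2.59% of WT in astrocytes, 22.2% to 31.2% in microglia and 9.26% to 29.6% in neurons without 1 library, a check added after the data were seen. With the replicate block 1 member was called in microglia. In neurons, TMM factors from mature miRNAs alone, DESeq2 with a local dispersion trend and no filter on low counts each gave 1, and DESeq2 with its default trend 0. The default trend was added after the data were seen, and the call on miR-200a-3p differs between the trends. Levels per mature miRNA count were added at the same stage.

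Between WT neurons and WT astrocytes, 0 members were called with library totals, TMM factors from mature miRNAs alone or 1 fit of all 18 libraries, 2 with the replicate block and 0 to 2 without 1 library. Between WT neurons and WT microglia, TMM factors from mature miRNAs alone and the fit of all 18 libraries each gave 1, and leaving out a library 0 to 1, as it did between WT microglia and WT astrocytes. In the KIN contrasts the counts are descriptions. Between KIN microglia and KIN astrocytes, leaving out a library gave 2 to 4. Between KIN neurons and KIN astrocytes, both DESeq2 fits, the fit of all 18 libraries and the replicate block gave 0, and leaving out a library 0 to 1. Between KIN neurons and KIN microglia, leaving out a library gave 1 to 3. For target genes, the count was 2 with library totals, 5 with TMM factors from mature miRNAs alone, 0 with both DESeq2 fits, without the filter and in the fit of all 18 libraries, and 0 to 4 without 1 library.

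TMM factors from mature miRNAs alone turned the direction of contrasts with neurons, where mature miRNAs take a smaller share of counts. The log2 fold changes became 1.04 (miR-200b-3p), 0.87 (miR-200a-3p), 0.98 (miR-429-3p) and 1.20 (miR-200c-3p) for WT neurons over astrocytes. They became 1.54, 1.33, 1.55 and 1.10 in that order for WT neurons over microglia, and 1.93 (miR-200b-3p), 1.65 (miR-200a-3p) and 0.26 (miR-200c-3p) for KIN neurons over microglia. Leaving out 1 library moved miR-200c-3p in WT microglia over astrocytes from −0.044, without WT astrocyte replicate 2, to 0.72. The cause of other changes was not tested. The replicate block changed no other count of members by over 1.5 times. The 10 miRNAs most like the family shared 8 to 10 names with each alternative. Over all features, 466 were called between KIN and WT astrocytes, but 1338 with TMM factors from mature miRNAs alone, 237 in the fit of all 18 libraries and 41 to 1527 without 1 library. In microglia 215 were called, but 389 with those TMM factors, 503 with DESeq2 (378 with its default trend), 426 without the filter, 400 in the fit of all 18 libraries, 49 with the block and 0 to 940 without 1 library. In neurons 0 were called, but 26 with those TMM factors, 6 with DESeq2, 75 without the filter and 0 to 52 without 1 library. Low counts limit what can be said of miR-141-3p, of neurons and of target genes.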
